A study of Mus musculus and Homo sapiens with 12 samples.

Results

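In CUT&Tag of mouse colon, 5496 of 216042 merged lysine butyrylation (Kbu) regions had a peak in at least 3 of the 4 Kbu libraries and lay more than 1 kb from both ends of every annotated gene. These recurrent regions off gene ends are called members below. Members were chosen by the Kbu peak lists themselves: all peaks of the 2 H3K18bu and 2 H4K12bu libraries were merged where they overlapped, regions with a peak from at least 3 of the lists were kept (8440), and the 2944 that reached within 1 kb of the start or end of a RefSeq gene on GRCm38 were set aside. How often and how strongly Kbu was seen at the members is therefore a description of how they were picked, and was not tested. Of the members, 3630 (66.0%) lay inside a gene body, beside 63.9% of all merged regions off gene ends, and 1866 outside genes, and 1480 had a peak in all 4 Kbu lists.

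The study asked where butyrate, made by gut microbes from fibre, marks histones in the intestine. The source was large intestine of male CETP-ApoB-100 transgenic mice, labelled as colon epithelium but taken as dissected, flash-frozen tissue from which nuclei were isolated, so other gut cells could contribute. Their ages were not given in the sources used here. The Kbu libraries carry the label of a high fat, high sucrose diet with 5% arabinoxylan, a cereal fibre, and the acetylation (Kac) libraries, 2 of H3K18ac and 2 of H4K12ac, carry the label of the same diet without it. The study's methods describe other groups, a low fat control diet and a high fat, high sucrose diet to which arabinoxylan was later added, so the diet of the Kac libraries is uncertain. Acyl group and diet cannot be told apart in any contrast of Kbu with Kac. The labels do not say whether the libraries of the same number came from the same mouse. With 2 mice recorded per condition, the Kac libraries of both residues may share mice.

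Histone lysines can carry an acetyl group or longer acyl groups such as butyryl, which neutralise the same positive charge, and both can be placed by acetyltransferases such as p300 and removed by histone deacetylases. H3K18 and H4K12 lie in the histone tails, and their acylation is known at active promoters and enhancers. Enhancers are stretches of regulatory DNA that can lie far from the ends of genes, in introns or between genes. CUT&Tag uses an antibody to tether a transposase, which cuts and tags the DNA beside the mark, and a peak is a place where more tagged fragments lie than in the local background of the same library. The pileup below is the number of extended read ends stacked at the highest point of a peak, solved from the deposited values, and a fragment can give more than 1 end.

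The Kbu lists were shallow. The 4 Kbu lists held 60813 and 50675 (H3K18bu replicates 1 and 2) and 50932 and 96432 (H4K12bu replicates 1 and 2) peaks, and between 89.2% and 91.4% of these had a pileup of 1. The Kac lists each held about 300000 peaks (299623 to 299861), the limit the authors set. Among the members, 1732 (31.5%) had a pileup of 1 in every Kbu library with a peak, 1980 (36.0%) had a highest pileup of 2, 1003 of 3 and 781 of at least 4. A Kbu q-value below 0.05 was reached in no Kbu library at 4159 members (75.7%) and in all 4 at 24. Of the 4016 members with 3 Kbu peaks, 1451 lacked one in H4K12bu replicate 1, 1031 in H3K18bu replicate 2, 768 in H4K12bu replicate 2 and 766 in H3K18bu replicate 1. The depth of single libraries thus limits any statement that a mark was missing at one place.

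At the edge of the rule, 74 members lay within 100 bp beyond the 1 kb limit and 87 recurrent regions lay within 100 bp on its other side. The nearest member was 1003 bp from a gene end (chr7:45682793-45683019, in Sec1, 3 Kbu lists, highest pileup 1). A region just outside the rule lay at 1000 bp (chr3:130691336-130691652, in Gm36373, 3 lists, highest pileup 3). For recurrence, 15207 regions off gene ends had peaks from 2 lists, against 4016 from 3.

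Some gene-body members covered the start of a shorter transcript inside a longer gene. The RefSeq table of 300-base promoter windows on GRCm38.p6, which runs from 250 bases before to 50 after a start, had a window that 200 members (3.64%) overlapped, all in gene bodies. No member outside genes could overlap a window, since windows reach only 250 bases before a start. The share was 0.439% among regions off gene ends with a peak from 1 Kbu list. Members were wider than those regions (median 352 bp against 185 bp), which gives more room to meet windows. Since the sequence of the regions themselves was not read here, 5 of these windows are shown: the first 4 when windows at members with peaks from all 4 Kbu lists are ranked by the lowest of the 4 Kbu pileups and, last, the first with no Kac peak. Capitals mark matches, on either strand, to an AP-1 motif (TGANTCA), a GC box (GGGCGG), an ETS motif (CCGGAAGT), a CDX motif (TTTATNG) and an HNF4 motif (CAAAGTCCA); each is 5′ to 3′ on the gene's strand.
Sult1b1, chr5:87536173-87536472, minus strand: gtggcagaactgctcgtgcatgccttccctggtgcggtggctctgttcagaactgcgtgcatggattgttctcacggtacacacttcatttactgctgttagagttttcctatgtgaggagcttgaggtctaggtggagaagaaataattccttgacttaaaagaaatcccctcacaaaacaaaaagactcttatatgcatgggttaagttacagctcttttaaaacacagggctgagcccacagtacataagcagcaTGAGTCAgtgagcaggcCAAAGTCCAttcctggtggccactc
Mesd, chr7:83892016-83892315, plus strand: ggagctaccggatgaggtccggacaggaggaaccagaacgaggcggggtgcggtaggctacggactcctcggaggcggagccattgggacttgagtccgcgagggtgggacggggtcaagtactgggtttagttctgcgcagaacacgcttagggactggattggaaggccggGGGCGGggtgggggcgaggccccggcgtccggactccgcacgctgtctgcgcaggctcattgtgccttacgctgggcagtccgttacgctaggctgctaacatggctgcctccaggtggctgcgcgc
Homez, chr14:54864109-54864408, minus strand: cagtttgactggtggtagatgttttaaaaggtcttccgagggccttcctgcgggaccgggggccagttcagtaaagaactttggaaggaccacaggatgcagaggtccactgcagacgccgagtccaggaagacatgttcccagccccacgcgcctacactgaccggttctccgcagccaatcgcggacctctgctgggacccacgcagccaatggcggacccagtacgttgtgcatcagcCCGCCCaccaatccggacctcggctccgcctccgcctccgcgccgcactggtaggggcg
Ccnl1, chr3:65958200-65958499, minus strand: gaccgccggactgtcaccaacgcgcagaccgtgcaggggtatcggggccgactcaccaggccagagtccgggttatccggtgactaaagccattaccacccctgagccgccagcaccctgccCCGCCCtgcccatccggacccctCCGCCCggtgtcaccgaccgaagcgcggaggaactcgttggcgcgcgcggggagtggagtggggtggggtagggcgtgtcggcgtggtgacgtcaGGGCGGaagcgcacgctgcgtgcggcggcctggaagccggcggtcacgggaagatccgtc
Dcun1d5, chr9:7184255-7184554, plus strand: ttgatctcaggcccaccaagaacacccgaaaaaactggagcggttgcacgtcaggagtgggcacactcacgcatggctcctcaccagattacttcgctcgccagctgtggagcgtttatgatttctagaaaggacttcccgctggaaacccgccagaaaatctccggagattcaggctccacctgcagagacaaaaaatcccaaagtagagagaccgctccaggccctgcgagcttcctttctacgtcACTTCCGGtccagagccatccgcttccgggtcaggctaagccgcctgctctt

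The window in Sult1b1, a cytosolic sulfotransferase gene, has its transcript start 1973 bp from the nearest gene end. It had 46.7% G and C and 4 CpG dinucleotides, and held an AP-1 and an HNF4 match. Its member had Kbu pileups of 5, 5, 4 and 6 (H3K18bu replicates 1 and 2, then H4K12bu replicates 1 and 2, the order used throughout) and Kac pileups of 4, 9, 2 and 4. The Kbu and Kac values overlapped. The windows in Mesd, a chaperone of LRP receptors, Homez, a homeobox gene, and Ccnl1, which encodes cyclin L1, were richer in CpG, with 27, 23 and 37, and held 1, 1 and 3 GC boxes. Their members had Kbu pileups between 2 and 5 in each library. Dcun1d5, a factor in neddylation, had 17 CpG, an ETS match, Kbu pileups of 1, 1, 1 and 2 and no Kac peak.

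Over all windows that members overlapped (224 windows of 192 genes), the median was 14.5 CpG and 58.7% G and C. The 4728 windows that start more than 1 kb from any gene end had medians of 6 CpG and 51.7%, and all 32851 windows 7 and 52.7%. A GC box stood in 57.1% of the windows at members, 29.5% of those off gene ends and 35.7% of all, and an ETS match in 5.80%, 2.41% and 3.89%. AP-1 matches (8.48%, 8.10% and 7.81%), CDX matches (6.70%, 9.92% and 10.9%) and HNF4 matches (0.893%, 0.550% and 0.475%) are given in the same order. The 1926 windows at recurrent regions at gene ends stood above those at members in medians, with 22 CpG and 62% G and C. They also stood above them in GC boxes (67.1%) and ETS matches (8.62%). They stood below them in AP-1 (5.45%), CDX (6.33%) and HNF4 matches (0.571%). GC boxes and CpG counts are not independent of each other, and a match is a description of letters, not of a bound factor.

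The Kac lists had no part in choosing the members, so overlap with them can be compared. Members overlapped a peak of H3K18ac replicate 1 in 71.1% of cases, of H3K18ac replicate 2 in 69.4%, of H4K12ac replicate 1 in 46.0% and of H4K12ac replicate 2 in 63.6% (mean 62.5% ± 11.5, SD, n = 4 libraries). Over all merged Kbu regions the shares were 20.2%, 19.4%, 14.9% and 22%. Regions off gene ends with a peak from 1 Kbu list stood at 14.9%, 13.9%, 10.9% and 16.5%. The member share exceeded that of single-list regions in 4 of 4 Kac libraries, by 48.4 percentage points ± 9.79 (SD). The two-sided exact sign-flip test gave p = 0.125 (Benjamini-Hochberg adjusted over the 3 tests on the Kac lists, 0.188), and 0.125 is the smallest p that 4 libraries allow, so no comparison of this kind could pass 0.05.

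Members were also wider (median 352 bp against 185 bp), and a wider region has more room to meet a Kac peak. Among regions of 250 to 400 bp the mean share was 59.3% for 2539 members and 32.4% for 2767 single-list regions. In all, 439 members (7.99%) met no Kac peak in any library, against a background of 54.9% of all merged regions, and 1483 met a peak in all 4 Kac lists. Among regions of 250 to 400 bp the shares without a Kac peak were 8.78% for members and 32.5% for single-list regions. The member share was 13.4% without H3K18ac replicate 1, 12.0% without H3K18ac replicate 2, 10.1% without H4K12ac replicate 1 and 12.1% without H4K12ac replicate 2. The share was higher at each step of recurrence in all 4 Kac libraries, which was not tested, from a mean of 14.1% with 1 Kbu list through 35.7% with 2 and 57.9% with 3 to 75.2% with 4. It was also higher where the Kbu pileup was higher: 48.0% at members with a highest pileup of 1, 61.9% at 2, 72.7% at 3 and 83.1% at 4 or more.

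**Figure D1:**
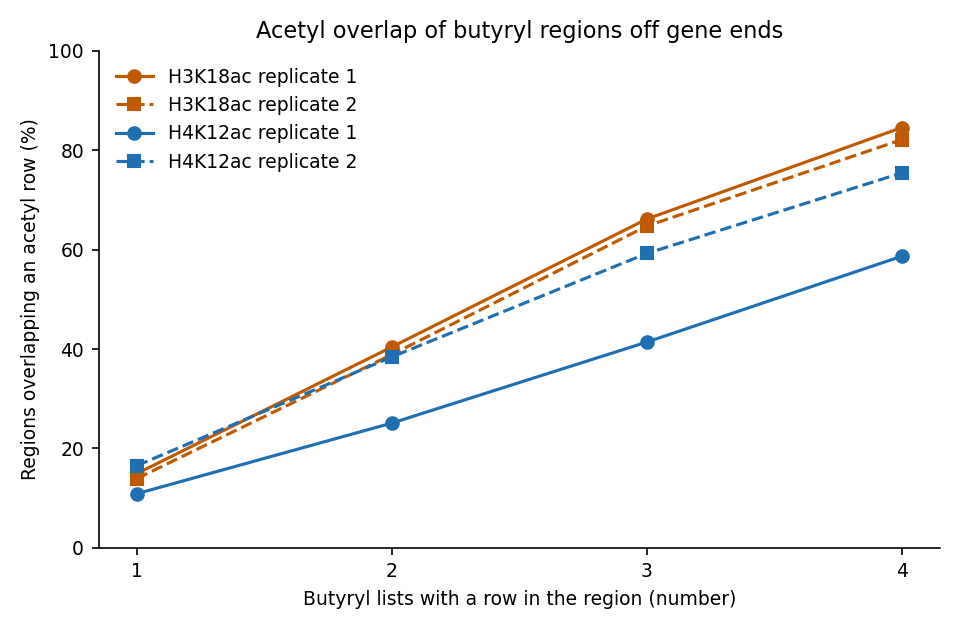
Percent of Kbu regions off gene ends (y axis) that overlapped a peak of each Kac library, by the number of Kbu lists with a peak in the region (x axis). Each line is a Kac library; the lines run from between 10.9% and 16.5% at 1 list to between 58.6% and 84.5% at 4 lists, with H4K12ac replicate 1 lowest at each step.

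The Kac lists end at different depths on different chromosomes, which bears on these shares. Where a list was capped, the weakest peaks tied at the lowest p were kept on part of the chromosomes: all 155849 tied peaks of H3K18ac replicate 2 lay on chromosomes 1 and 10 to 14, all 158414 of H4K12ac replicate 1 on chromosomes 1 and 10 to 13, and all 38445 of H4K12ac replicate 2 on chromosome 1, whereas the 216068 of H3K18ac replicate 1 were spread over all 19 autosomes. Without tied peaks the mean member share was 61.6% and the single-list share 11.5%. With Kac peaks of q below 0.05 alone it was 35.4% for members and 3.49% for single-list regions, and 1663 members (30.3%) had no such Kac peak. On the autosomes other than 1 and 10 to 13, members overlapped in 71.2%, 68.1%, 45.4% and 63.2%, within 3 percentage points of the shares on chromosomes 1 and 10 to 13 except for H3K18ac replicate 2 (72.7%).

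Where a Kac peak was present, its pileup was higher at members than at single-list regions by the median. The median Kac pileups at members were 5, 5, 3 and 4 (H3K18ac replicates 1 and 2, H4K12ac replicates 1 and 2), against 2, 3, 2 and 3 at single-list regions. At recurrent regions at gene ends they were 3, 4, 3 and 5. Members were thus above gene ends in both H3K18ac libraries, equal in H4K12ac replicate 1 and below in H4K12ac replicate 2. The highest pileup in each region was taken, so wider regions, such as members beside single-list regions, had more room for a high value. Pileups were not compared at like widths or without tied peaks.

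Each Kbu list was also held out in turn. All 4 lists served in the rule and the held-out values share choosing lists, so these values describe how Kbu recurred, with no test. Regions off gene ends with a peak from all 3 other Kbu lists were found in the held-out list in 65.2% (of 2204), 58.3% (of 2475), 49.9% (of 2899) and 65.0% (of 2192), in the order above. Regions with a peak from 1 of the 3 others were found in 6.76%, 5.63%, 4.87% and 9.30%. The difference was 53.0 percentage points ± 5.77 (SD, n = 4 libraries), and 34.9 among regions of 250 to 400 bp. It was 29.2 to 35.3 when 1 of the 4 Kbu libraries was left out altogether, which leaves 2 lists to choose the regions.

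Members were next set beside the recurrent regions at gene ends. The latter overlapped the Kac lists in 68.1%, 67.7%, 57.1% and 70.2%. Gene ends minus members was −3.02 and −1.66 percentage points in the H3K18ac libraries and 11.1 and 6.67 in the H4K12ac libraries. The mean of these differences was 3.26 ± 6.74 (SD, n = 4; exact sign-flip p = 0.5, adjusted 0.5), and its sign turned in 3 alternatives given in the closing section. It was 1.24 to 1.82 without each Kbu library in turn, 0.66 and 2.13 without H4K12ac replicates 1 and 2, and 5.36 and 4.91 without H3K18ac replicates 1 and 2. Recurrent regions at gene ends were wider (median 408.5 bp against 352 bp), and among regions of 250 to 400 bp the mean shares were 59.4% at gene ends and 59.3% for members, a difference of 0.17. In the held-out Kbu lists, gene ends were found in 58.3%, 51.7%, 62.0% and 80.9%, with gene ends minus off gene ends at −6.99 and −6.64 in the H3K18bu lists and 12.0 and 15.9 in the H4K12bu lists. The rule used these lists, so their values are no second support for those of the Kac lists.

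That the H3K18ac and H4K12ac lists went opposite ways was noticed in these values, so it is given as a description and was not tested. Gene ends minus members averaged 8.87 percentage points ± 3.11 (SD) for the 2 H4K12ac libraries and −2.34 ± 0.956 for the 2 H3K18ac libraries, a difference of 11.2, which was 18.1 with Kac peaks of q below 0.05. The held-out Kbu lists are not pooled with these. Each H3K18bu list was judged on regions chosen by 1 H3K18bu and 2 H4K12bu lists, and each H4K12bu list on the reverse. When the choosing lists were 1 of each residue, the H3K18bu differences were −0.31 and 0.33 and those of H4K12bu 13.98 and 19.9, so the H3K18bu values lay near 0 with that choice.

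**Figure D2:**
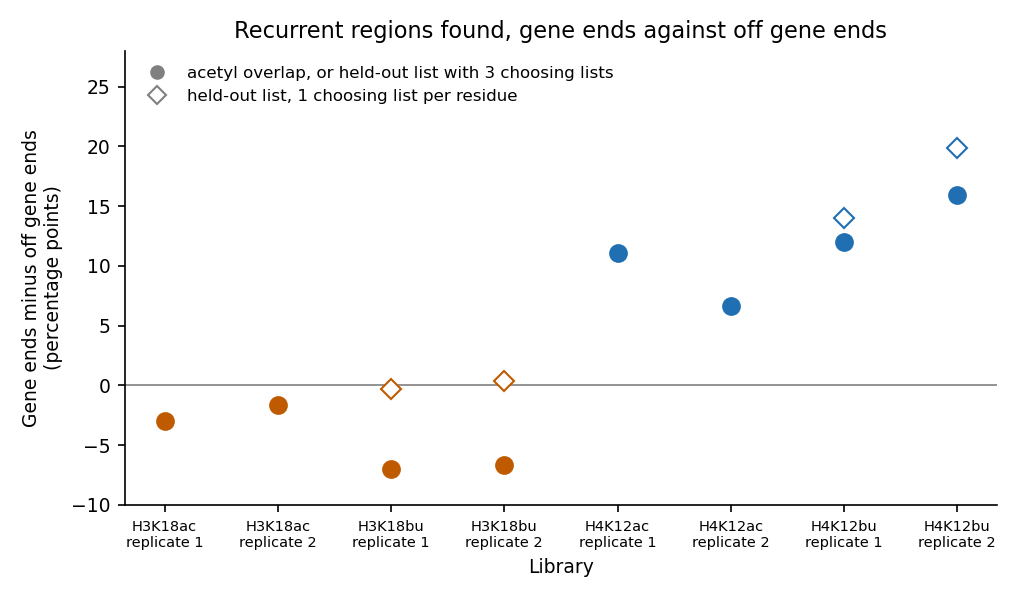
Gene ends minus off gene ends (y axis, percentage points) in each of 8 libraries (x axis): filled circles are overlap with a Kac list or presence in a held-out Kbu list, which the rule also used, and open diamonds are held-out lists with 1 choosing list of each residue. The Kac circles lie at 11.1 and 6.67 for H4K12ac and at −3.02 and −1.66 for H3K18ac. The H3K18bu diamonds lie at −0.31 and 0.33 and the H4K12bu diamonds at 13.98 and 19.9.

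Members in gene bodies were then compared with those outside genes. Gene-body members overlapped the Kac lists in 69.6%, 68.4%, 45.3% and 63.1%, and those outside genes in 73.9%, 71.3%, 47.4% and 64.6%. The gene-body share was lower in 4 of 4 libraries, with a mean difference, gene body minus outside genes, of −2.70 percentage points ± 1.19 (SD, n = 4; exact sign-flip p = 0.125, adjusted 0.188). It was −5.42 without H4K12bu replicate 2, −1.61 without H4K12bu replicate 1 and −1.69 without H3K18bu replicate 2. Without H4K12bu replicate 1 the exact sign-flip p was 0.25, so not all 4 Kac libraries kept the direction. Median widths were 360 and 337 bp. The median distance to a gene end was 8994 bp in gene bodies and 9035 bp outside genes, and 64 members lay more than 100 kb from any gene (3.43% of those outside genes, against 7.67% of single-list regions outside genes). Of the gene-body members, 3157 (87.0%) lay in a protein-coding gene and 446 in a long noncoding RNA gene only. Exons and introns were not analysed here.

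Members in gene bodies and outside genes were each ranked by the lowest of their 4 Kbu pileups, with at most 1 taken from a cluster. Pileups grow with the depth of a library and were not scaled, so Kbu and Kac pileups are not on one scale. The deposited folds over local background are given beside the first of them. These folds add 1 to pileup and background, which lowers them most in the shallow Kbu libraries. No conclusion on the order of Kbu and Kac is therefore drawn from pileups or folds. The gene-body ranking was led by a place in Sfi1, whose product binds centrins at the centrosome (chr11:3135419-3135861). Its Kbu pileups were 31, 28, 25 and 27, and its Kac pileups 31, 29, 17 and 40. The median pileup was 1 in each Kbu list and 1 or 2 in the Kac lists. The pileup ranges of Kbu and Kac overlapped there. Its folds were 16.8, 17.1, 15.6 and 14.1 for Kbu and 11.4, 8.78, 6.87 and 8.43 for Kac. The next was in the noncoding RNA gene 2700054A10Rik (chr17:13550636-13551226), with Kbu pileups of 17, 9, 14 and 20 and Kac pileups of 37, 38, 90 and 310. All 4 Kac pileups exceeded all 4 Kbu pileups there, and both H4K12ac values exceeded both H3K18ac values. The folds were 6.405, 5.68, 7.16 and 6.27 for Kbu and 7.14, 6.44, 8.51 and 8.94 for Kac. The pseudogene Gm20590 (chr13:74530296-74530669) showed the same order of pileups, with 16, 8, 13 and 18 for Kbu and 28, 28, 59 and 184 for Kac. Its folds were 9.66, 6.66, 8.30 and 9.90 for Kbu and 11.005, 9.83, 13.6 and 13.5 for Kac. Gm4827, a noncoding RNA gene (chr16:50030399-50030814), had pileups of 15, 5, 12 and 9 for Kbu and 38, 43, 26 and 69 for Kac. Its folds ran from 5.37 to 11.7 for Kbu and from 13.96 to 22.9 for Kac.

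Below these stood protein-coding hosts with pileups of 4 to 12. Poc1b, a centriole protein gene, had Kbu pileups of 5, 12, 5 and 9 and Kac pileups of 11, 10, 6 and 10 (chr10:99126862-99127319). Pde4b, a phosphodiesterase that breaks down cyclic AMP, had 7, 5, 4 and 4 and Kac pileups of 15, 25, 7 and 25 (chr4:102493986-102494817). Nedd9, a scaffold of focal adhesions, had 6, 4, 4 and 4 and Kac pileups of 11, 7, 2 and 6 (chr13:41335692-41336610). For Poc1b and Nedd9 the Kbu and Kac ranges overlapped, and for Pde4b they met at 7. The folds of Poc1b were 4.78, 10.2, 5.202 and 7.45 for Kbu and 5.22, 4.32, 4.46 and 5.23 for Kac.

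Outside genes the 6 leading members had a lowest Kbu pileup of 3 or 4. The member 10200 bp from Klrb1a, a natural killer cell receptor gene (chr6:128598712-128599027), had Kbu pileups of 8, 4, 6 and 6 and Kac pileups of 12, 4, 6 and 9. A member on X, 13835 bp from Zcchc13 (chrX:103645499-103645727), had 8, 4, 4 and 4, and one 25040 bp from the noncoding RNA gene A630089N07Rik (chr16:98107479-98107814) had 8, 5, 5 and 4. A pair of others lay 25952 bp from Gm40658 (4, 7, 3 and 3) and 2288 bp from Dock6, a guanine nucleotide exchange factor gene (4, 3, 3 and 3). The remaining member lay 123907 bp from Fgf14, an intracellular factor that modulates sodium channels (chr14:124801593-124801968), with Kbu pileups of 10, 10, 12 and 3 and Kac pileups of 8, 7, 15 and 32. There H4K12ac was above H3K18ac in both replicates, while H4K12bu held both the highest and the lowest Kbu value. Whether any of these places has copies elsewhere in the genome was not analysed here.

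**Figure D3:**
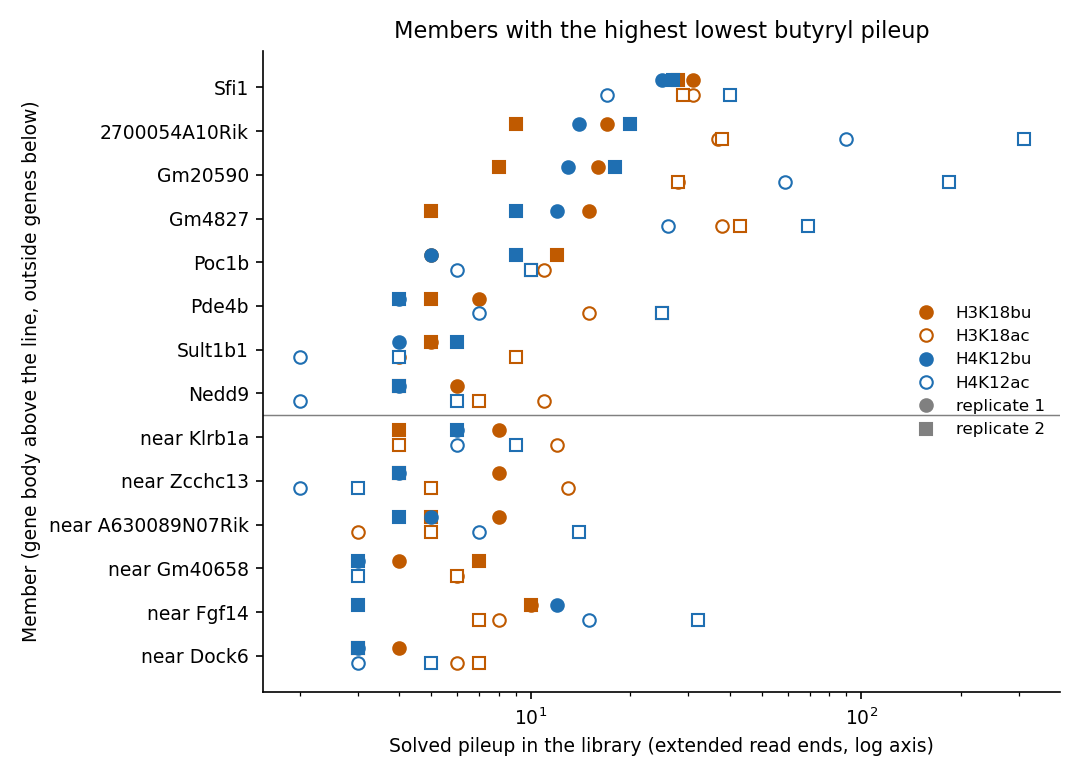
Solved pileup (x axis, log scale, extended read ends) of the 8 gene-body and 6 outside-gene members that led their class by the lowest of the 4 Kbu pileups, at most 1 per cluster (y axis, named by host gene or by nearest gene), filled for Kbu and open for Kac libraries, circles for replicate 1 and squares for replicate 2; equal values lie on top of each other and libraries without a peak have no point. Sfi1 has Kbu pileups of 25 to 31, and 2700054A10Rik and Gm20590 have H4K12ac pileups of 59 to 310; pileups are not scaled between libraries.

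Ranked instead by the Kac lists, 2700054A10Rik, Gm20590, Gm4827 and a further place in Sfi1 (chr11:3142267-3142931, Kac pileups 22, 18, 21 and 34) came first. They were followed by a member 4878 bp from Aadac, an esterase gene (Kac 15, 15, 28 and 84, Kbu 10, 4, 3 and 9), and one in Smo, the signal transducer of Hedgehog (Kac 14, 23, 29 and 132, Kbu 8, 3, 5 and 12). At both, each H4K12ac value exceeded each H3K18ac value.

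The 439 members without a Kac peak had low Kbu pileups. The 6 that led them were in Wdr1, a cofactor of actin filament disassembly (Kbu 2, 4, 2 and 2), Hif3a, a hypoxia-inducible factor (2, none, 2 and 4), Myadm, a membrane protein gene (none, 2, 2 and 3), Fam53b (2, 2, 2 and none) and 2 neighbouring places in C77080 (2, 2, none and 2, then none, 2, 2 and 2). Only the Wdr1 member had a peak in all 4 Kbu lists (chr5:38560618-38561265). At these pileups, absence from a Kac list cut at a p threshold does not show that the acetyl mark was absent.

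Gene-body members were spread over 2452 genes, 1648 of which held 1 member. Of the 21887 protein-coding genes, 1971 (9.01%) hosted a member. Hosts were long, with a median of 64.6 kb against 17.2 kb for all protein-coding genes, so members per 100 kb are given beside the counts. Mgat5, which branches N-glycans, and Zbtb7c, a zinc finger factor gene, hosted 11 each (3.88 and 3.35 per 100 kb). Foxp1, a forkhead factor gene, and Macrod2, which removes ADP-ribose from proteins, hosted 10 each, at 1.67 and 0.501 per 100 kb. Aopep, an aminopeptidase gene, and Ccdc85c hosted 9 each. Ccdc85c, with its 9 members in 74.3 kb (12.1 per 100 kb, against 0.307 over all protein-coding genes), was the densest of these 6 hosts, and 4 of its members had peaks in all 4 Kbu lists. Shorter hosts could be denser, such as Cdx1 at 17.3 per 100 kb. All 10 members in Macrod2 and 10 of 11 in Mgat5 and in Zbtb7c met at least 1 Kac peak.

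Gene groups were read from fixed lists, which were drawn up with earlier results of these data known, and are described by counts alone. Among genes of intestinal epithelial identity, 6 of 16 hosted a member, against 9.01% of protein-coding genes. Cdx1, an intestinal homeobox factor, hosted 3 in 17.3 kb, with highest Kbu pileups of 3, 3, 2 and 2, and Cdh1, which encodes E-cadherin, hosted 2 (2, 1, 1 and none), as did Hnf4a, a nuclear receptor of gut and liver. Of stem and crypt genes 5 of 14 hosted a member, led by Ephb2, Hopx and Lrig1 with 2 each. The absorptive colonocyte list had 1 of 18, Slc9a3, the sodium/proton exchanger NHE3, with 2 members (highest Kbu pileups 1, 4, 2 and 2). The goblet cell list had 2 of 13, Creb3l1 with 3 members and Ern2, an endoplasmic reticulum stress sensor of goblet cells, with 1 (3, 2, 4 and 2). In the enteroendocrine and tuft cell list 1 of 15 did, Sh2d6. Per 100 kb of gene length, these lists held 1.77 (epithelial identity), 0.904 (stem and crypt), 0.471 (colonocyte), 1.39 (goblet cell) and 0.170 (enteroendocrine and tuft cell) members, beside 0.307 over all protein-coding genes. The colonocyte list was thus below protein-coding genes by its share of hosts and above them by density.

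Lists of junctions, cytoskeleton, transport and signalling were read in the same way, beside the 9.01% of all protein-coding genes that hosted a member. In the cell-substrate junction list 9 of 28 genes hosted 27 members, 8 of them in Tns3, a tensin of focal adhesions (3.43 per 100 kb), and 5 in Itga6, an integrin subunit that binds laminin (6.99 per 100 kb). The tight and adherens junction list had 7 of 21 (Magi1 and Tjp1, a scaffold gene known as ZO-1, with 3 each), and the actin cytoskeleton list 9 of 24 (Eps8 with 4, Pls1 with 3). Pls1, a microvillus bundling protein gene, reached Kbu pileups of 5, 4, 6 and 3 and Kac pileups of 9, 15, 7 and 11. The ion channel and transport list had 7 of 19, with 5 members in Kcnq1, a potassium channel gene, and 3 in Slc4a4, a bicarbonate transporter gene. The Wnt and TGF-beta signalling list had 7 of 22, with 3 members each in Lrp5, a Wnt co-receptor, and Ski, a repressor of SMAD signalling. Per 100 kb of gene length the lists held 0.952 (cell-substrate junction), 0.480 (tight and adherens junction), 0.468 (actin cytoskeleton), 0.393 (ion channel and transport) and 0.654 (Wnt and TGF-beta signalling) members, beside 0.307 over all protein-coding genes. Differences between lists were not tested.

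A pair of lists covered the enzymes of histone acylation and the use of butyrate. Of the histone acylation enzymes 2 of 21 (9.52%, 0.170 members per 100 kb) hosted a member, the deacetylase genes Hdac7 with 3 and Hdac4 with 1. Over all protein-coding genes these values were 9.01% and 0.307, so this list lay near the share and below the density. Of genes of butyrate uptake and oxidation 3 of 14 did (21.4%, 0.441 per 100 kb), led by Ppara and Ppargc1a with 2 each. These lists differ in gene length, with medians from 10.2 kb (liver) to 108 kb (actin cytoskeleton), and members per 100 kb ran from 0 to 1.77, the latter for intestinal epithelial identity.

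Markers of other cell types and tissues gave 1 host of 12 for smooth muscle (Synpo2), 0 of 13 for fibroblast and collagen, 1 of 14 for immune cells (Itgam), 0 of 14 for enteric neurons and glia, 1 of 9 for endothelium (Vwf), 0 of 12 for liver and 1 of 15 for skeletal and heart muscle (Ryr2, a calcium release channel gene of heart and brain). The shares above 0 were 8.33% (smooth muscle), 7.14% (immune), 11.1% (endothelium) and 6.67% (skeletal and heart muscle), beside 9.01% of protein-coding genes. Members per 100 kb in the same order were 0.109, 0.135, 0.231 and 0.071, beside 0.307 over all protein-coding genes. Differences from these backgrounds were not tested in lists this short. As a check of the labelled tissue that did not use the members, a Kac peak of q below 0.05 stood within 1 kb of a gene end in at least 1 Kac library for 11 of 16 epithelial identity and 13 of 18 colonocyte genes, against 2 of 12 liver genes, 4 of 15 muscle genes and 9625 of 21887 protein-coding genes. With such a peak asked for in at least 3 of the 4 Kac libraries, the counts were 3 of 16, 0 of 18, 1 of 12, 0 of 15 and 1689 of 21887 (7.72%), so that the colonocyte list was then below protein-coding genes as a whole. By the first measure it was absent for 10 of 13 goblet cell genes and 12 of 15 enteroendocrine and tuft cell genes, and 5 of 12 smooth muscle genes had one. Whether other cells contributed to the members was not tested.

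**Figure D4:**
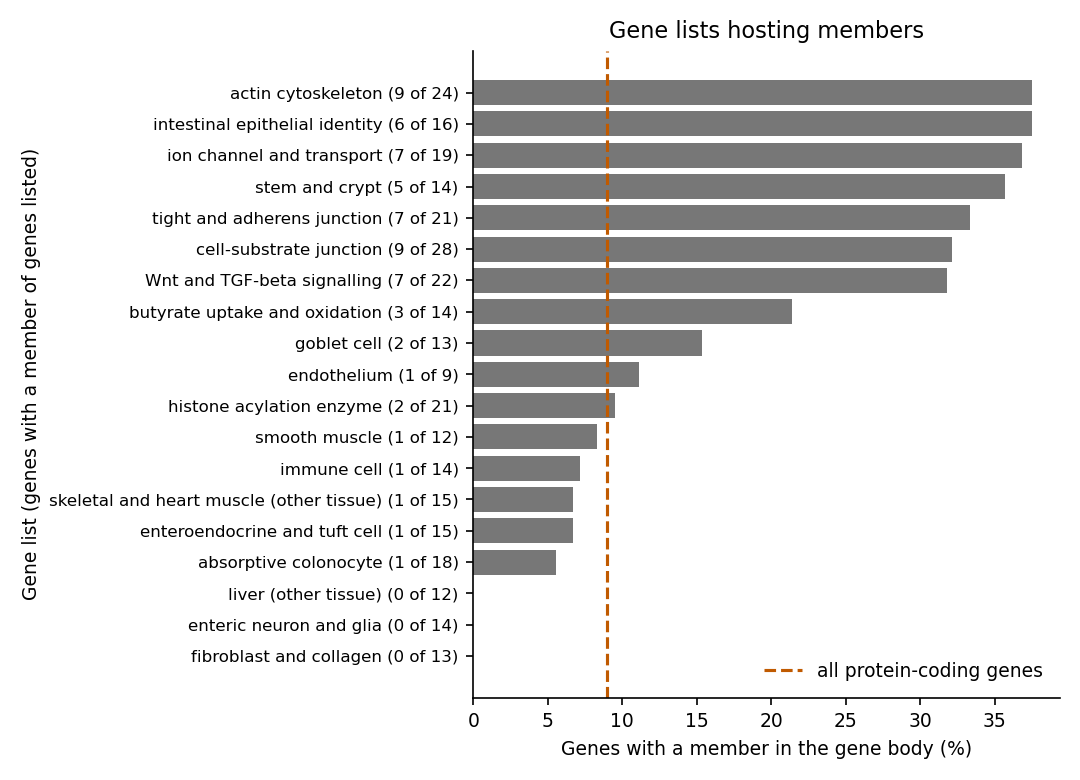
Percent of genes in each list (y axis, with counts) that hosted a member in the gene body (x axis); the dashed line is the 9.01% of all protein-coding genes. The lists for epithelial identity, crypt, junction, actin, transport and Wnt and TGF-beta genes lie between 31.8% and 37.5%, and those for liver, enteric neurons and fibroblasts at 0; the lists differ in gene length.

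Of the genes named for mouse intestine in the study, Akap9, a kinase anchoring protein gene, hosted 3 members, with highest Kbu pileups of 4, 2, 2 and 2 and highest Kac pileups of 10, 13, 3 and 6. Cyria, a regulator of actin branching, hosted 2, with highest Kbu pileups of 1, 1, none and 1 and no Kac peak at either. Fgf14, Fgfrl1, which encodes an FGF receptor-like protein, and Cldn3, a claudin of tight junctions, hosted none. Cldn3 spans 1.26 kb, so the rule allowed no member inside it. The members nearest to Fgf14, Fgfrl1 and Cldn3 lay 123907, 231198 and 34825 bp away. The study named these genes by differential binding of Kbu against Kac, which is a different measure. Hosting no member is no test of it.

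Clusters of members were described by their spacing. By a rule of at least 3 members with gaps of at most 10 kb, 228 clusters held 778 members (14.2%), with spans of 1.56 to 25.7 kb. The share in clusters was 4.26% and 5.09% without H3K18bu replicates 1 and 2, and 5.45% and 4.97% without H4K12bu replicates 1 and 2, where a member needs a peak in each of the 3 lists that remain. Of the 5475 pairs of neighbouring members, 1232 (22.5%) were within 10 kb, 380 (6.94%) within 1 kb and 106 within 200 bp. Single-list regions off gene ends, which are far more numerous, had 63.7% of 159677 neighbouring pairs within 10 kb and 23.6% within 1 kb. The 228 clusters comprised 161 of 3 members, 45 of 4, 17 of 5 and 5 of 6, and 168 touched a gene body.

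The tightest was in Gm20590, where 6 members stood in 2.12 kb (chr13:74528547-74530669) with gaps of 110 to 174 bp. Its coefficient of variation of the spacing between member midpoints was 11.5%. Its members had Kbu pileups between 2 and 18 and Kac pileups of 9 to 28 for H3K18ac and 23 to 184 for H4K12ac, and a single Kac peak could overlap more than 1 of them. All 6 met a peak in each Kac list. The leading place in Sfi1 lay in a cluster of 4 members over 19.1 kb that also took in the pseudogene Pisd-ps1, with gaps of 3118 to 7706 bp. Whether these members are copies of a repeat was not tested. In all, 19 clusters had every gap within 1 kb. By midpoint spacing the most even of them was 3 members in 6030440G07Rik (chr12:111006940-111008900, coefficient of variation 2.69%), although its gaps were 128 and 229 bp.

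The other large clusters were wider and weaker. Between Slc16a1, which encodes MCT1, a carrier of lactate and butyrate, and the noncoding RNA gene Gm34548, 6 members spanned 13.9 kb (chr3:104660615-104674563), starting 2153 bp from Slc16a1. Their Kbu pileups ran from 1 to 4, and 5 of the 6 met a Kac peak. In Plec, which encodes the cytolinker plectin, 6 members spanned 23.1 kb (chr15:76186466-76209525, Kbu pileups 1 to 3, 4 of 6 with a Kac peak). Another 6 members lay between Mir29b-1 and Lncpint, both noncoding RNA genes, in 23.6 kb (chr6:31067513-31091123, Kbu pileups 1 to 3, 4 of 6 with a Kac peak). In Sh3bgrl2, 6 members spanned 25.7 kb (chr9:83531559-83557214, Kbu pileups 1 to 3, 6 of 6 with a Kac peak). Beside the noncoding RNA gene Gm52862, 5 members spanned 9.35 kb, with Kbu pileups of 1 to 5 and Kac pileups up to 13. Apart from Gm20590, spacing in these clusters was uneven, with coefficients of variation from 41.6% to 127%.

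Density differed little between autosomes and was low on the sex chromosomes. Members per Mb ran from 1.76 (chromosome 14) to 2.86 (chromosome 11), with a median of 2.18 over 19 autosomes. Across the 19 autosomes the density of members followed that of protein-coding genes (Pearson 0.67, Spearman 0.64) and that of single-list regions (0.83 and 0.70); these are descriptions, since the chromosomes share the same libraries. X held 71 members (0.415 per Mb) and Y held 3, and the density on X was 0.189 times that of the autosomes. The same ratio was 0.259 for recurrent regions at gene ends, 0.326 for single-list regions off gene ends, and 0.276 to 0.336 for the 4 Kbu lists. In the Kac lists without tied peaks it was 0.205, 0.251, 0.292 and 0.342. The rule asks for 3 lists, so the ratio of members is not on the same footing as that of a single list. The mice were male, with a single X per cell, and the part of copy number in these ratios was not tested. The 71 members on X met the Kac lists in 67.6%, 69.0%, 36.6% and 67.6%, beside 71.1%, 69.4%, 46.0% and 63.6% over all members.

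**Figure D5:**
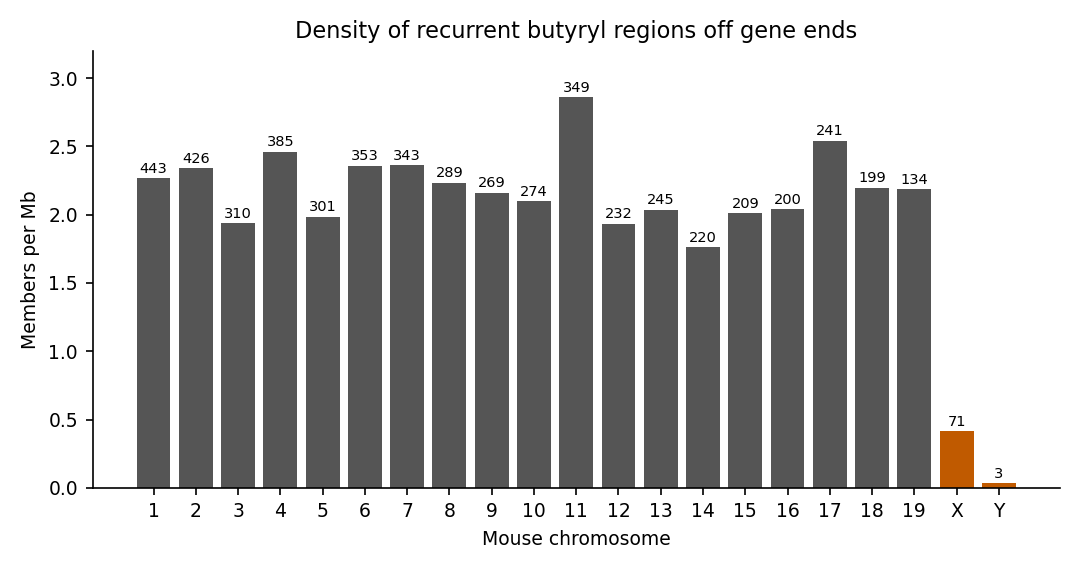
Members per Mb (y axis) on each mouse chromosome (x axis), with the number of members above each bar. Autosomes lie between 1.76 and 2.86, X at 0.415 and Y at 3 members in all.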

How the data were processed

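The 8 mouse libraries of the series were analysed, and the 4 human cell line libraries were not used. Per the paper's methods, alignment used Bowtie2 and the peak caller was MACS2, run by the authors through an ENCODE pipeline; each library has its own list, and no control library is named. The submitters' processing notes name Bowtie2 2.3.1, MACS2 2.1.0 and the build mm10, which is GRCm38. The authors deposited, for each peak, a ratio (fold over local background) and the −log10 p and −log10 q of the same test. No counts per sample were used, so no count model was fitted. Pileups were solved from fold = (pileup + 1) / (background + 1) and the Poisson tail; all peaks gave a whole pileup within 0.01 of the −log10 p, and the solver was tested on simulated data. Highest solved pileups per region and library are reported, and levels are not scaled between libraries. By the lowest background, a 73 bp extension and the preset genome of 1.87 Gb, depth was at most 0.374 M read ends per Kbu library and 1.56 M to 3.77 M per Kac library.

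Genes were 49943 RefSeq entries of GRCm38.p6. Overlap meant at least 1 bp. Members and gene lists were chosen with earlier results of these data known. Named genes followed a rule (highest lowest pileup in Kbu or Kac, no Kac peak, most members, largest clusters with ties going to the shorter span, genes the study named, leading genes of each list); other genes were named after their values were seen: the promoter windows, threshold cases, Pls1, Ern2 and single hosts of a list. Comparisons of Kac overlap were sign-flip tests over libraries; the test planned for held-out Kbu lists is not reported, since the rule used those lists. The p-values measure only the spread between libraries, since the labels do not say which came from separate mice. The correlation of replicate differences between the residues over members was 0.013 for Kac and 0.012 for Kbu. At pileups this low it cannot show whether same-numbered libraries share a mouse, and the Kbu lists also chose the members. Python 3.11.15, scipy 1.17.1 and bedtools 2.31.1 were used. Alternatives are given in the closing section.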

Additional observations from a re-analysis of the deposited data

Results flagged for a closer look

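The contrast of gene ends with members went opposite ways by residue in the Kac lists. It was positive in both H4K12ac libraries (11.1 and 6.67 percentage points) and negative in both H3K18ac libraries (−3.02 and −1.66), a difference of 11.2. This was noticed in these values and the difference was not tested. The lowest background differed between the Kac libraries, and its part in the difference was not tested. The number of tied peaks differed too. The difference was 13.7 without tied peaks and 11.8 without chromosomes 1 and 10 to 14. The held-out Kbu lists, which the rule used, are no support for it. With 1 choosing list of each residue the H3K18bu values were −0.31 and 0.33 and the H4K12bu values 13.98 and 19.9.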

How the results depend on the processing

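The comparisons of members with single-list regions and of gene bodies with outside genes kept the direction of their mean in all alternatives run (26.8 to 61.1 and −5.42 to −1.61 percentage points, the latter without H4K12bu replicates 2 and 1). Without H4K12bu replicate 1, gene body minus outside genes had an exact sign-flip p of 0.25, so not all 4 Kac libraries kept its direction. With 4 libraries no test could pass 0.05. For members minus single-list regions the lowest value, 26.8, came from regions of 250 to 400 bp, a width chosen after seeing the data. The held-out difference, a description of lists that the rule used, was 45.1 with a highest Kbu pileup of at least 2, 47.2 with the stretch covered by at least 3 lists, 34.9 with regions of 250 to 400 bp, and 29.2 to 35.3 without each Kbu library in turn. Gene ends minus off gene ends in the Kac lists turned sign with peaks from all 4 Kbu lists (−0.11), at 5 kb from gene ends (−0.49) and with Kac q below 0.05 (−0.29), was 0.17 with regions of 250 to 400 bp and ran from 0.66 to 5.36 without each library in turn; the cause was not tested. The number of members was 1480 with all 4 Kbu lists and 11076 with both replicates of a mark, and 2192 to 2899 without each Kbu library in turn. The mean Kac overlap was 75.2% with all 4 Kbu lists, 49.5% with both replicates of a mark and 35.4% with Kac q below 0.05. The difference between H4K12ac and H3K18ac libraries in gene ends minus off gene ends, with its alternatives all chosen after seeing the data, was 18.1 with Kac q below 0.05 and between 8.25 and 13.7 in the others run, 9.01 to 13.4 without each Kac library in turn among them. The share in gene bodies ran from 55.2% (protein-coding genes only) to 67.3%, the share without a Kac peak from 3.24% (all 4 Kbu lists) to 30.3% (Kac q below 0.05), the share in clusters from 2.84% (all 4 Kbu lists) to 37.7% (gaps of 50 kb), with 4.26% to 5.45% without each Kbu library in turn, and the X to autosome ratio from 0.166 to 0.223. With the replicate block, averaging same-numbered libraries, gene ends minus off gene ends was 3.26, gene body minus outside −2.70, members minus single-list regions 48.4 and held-out lists 53.0, means that pairing cannot move; the smallest exact p is then 0.5. Held-out values could not be had with all 4 Kbu lists, with both replicates of a mark or without clustered members.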
